A study of Saccharomyces cerevisiae with 4 samples.

Results

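The genes described here are 51 yeast genes for chromatin remodelling, histone deposition and silencing, chosen by name. They comprise 14 subunits of RSC, 9 of SWI/SNF, 3 shared by RSC and SWI/SNF, the ATPases INO80 and SWR1, 7 genes of the ISWI and Chd1 remodellers, 8 histone chaperone genes, 4 SIR genes and the 4 SIR2 homologues HST1 to HST4. The platform carried 50 of them among its 5539 named genes, each with 2 spots, and HTL1 had no spot matched here. A ratio on all 4 arrays was available for 46 of the 50.

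The data are 4 arrays with 2 channels, on which RNA of Congo red-treated yeast was set against RNA of untreated yeast. Both came from the same Saccharomyces cerevisiae strain, BY4741 with SLT2 deleted, so the controls too lack this kinase, which ends the signalling cascade of the cell wall. BY4741 is a haploid laboratory strain. Cells grew in the rich medium YEPD at 24 °C, and the culture was split. One part received 30 µg/ml of Congo red, a chitin-binding dye that stresses the wall, the other nothing, and cells were harvested at 4 h. Treated RNA was in channel 2 on arrays 1 and 3 and in channel 1 on arrays 2 and 4. The sources used here do not say whether the 4 arrays hold separate cultures. Every p-value therefore measures only the spread between arrays, which may be technical.

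Chromatin remodellers are complexes built around an ATPase that slide, evict or exchange nucleosomes. RSC and SWI/SNF are related and share subunits. RSC is essential for growth and works at many promoters, whereas SWI/SNF is dispensable and acts at inducible genes. ISWI and Chd1 enzymes space nucleosomes, and INO80 and SWR1 act on the histone variant H2A.Z. Histone chaperones hand histones to DNA, CAF-1 behind the replication fork and the HIR complex outside replication. The SIR proteins form the silent chromatin of the silent mating loci and telomeres.

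All values are log2 ratios of Congo red over untreated RNA after each array was centred on its median, as mean ± SD over 4 arrays (n = 4). The direction is likely only: it takes channel 2 as the numerator of the deposited ratios, and if channel 1 is the numerator every sign reverses together. If the authors had already turned all arrays to treated over untreated, the means would reflect channel order in place of treatment. Usable ratios came from 84.1% to 90.9% of the 12800 spots per array. The number of arrays limits the precision. Spot brightness was not analysed here, so a ratio between 2 faint spots cannot be told from one between bright spots. In cultures of mixed cells, fewer cells expressing a gene and less RNA per cell cannot be told apart. The deleted SLT2 stood at -0.62 ± 1.41, which as a ratio of 2 deleted samples does not check the deletion.

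None of the measured members passed a test over all genes in the main analysis. MSI1, a subunit of the chaperone CAF-1, and HIR3, a subunit of the HIR complex, had the largest moderated t above 0 in limma's test. SIR1, which helps found silent chromatin, HST1, a relative of the deacetylase gene SIR2, and RSC9, a subunit of RSC, had the largest below 0. The median of the 46 members was 0.18, beside 0.022 for all 4481 genes measured on 4 arrays. Over the 24 members whose paired spots lay within 1 log2 unit on every array, it was 0.011, beside -0.061 for the 2804 genes so filtered. Means lay above 0 for 29 members and below 0 for 17. The members' medians on arrays 1 to 4 were 0.15, 0.16, 0.12 and 0.16.

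In limma's test over all 4481 genes with Benjamini-Hochberg adjustment, 0 of 46 members passed at 0.05, beside 0.0% of all genes. The smallest adjusted p of a member was 0.0522, for MSI1. At an unadjusted p under 0.05 there were 15 of 46 members (32.6%), beside 27.5% of all genes. Of the 46 members, 10 were higher at that threshold, beside 13.1% of all genes, and 5 lower, beside 14.4%. The members' share in both directions together is therefore near the background. The split by direction was not tested. The sign was the same on all 4 arrays for 23 of 46 members (50.0%), beside 41.7% of all genes. Of the 46, 15 were higher on every array, beside 20.4% of all genes, and 8 lower on every array, beside 21.3%.

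A second analysis kept a gene on an array only where both its spots were measured and lay within 1 log2 unit. This duplicate-spot analysis follows an earlier analysis of these data, where it was chosen after its calls had been seen, and its p-values ignore that choice. It held 24 members. ARP7, a shared actin-related subunit, rose, and RSC9, the RSC subunit LDB7 and SIR1 fell. These 4 of 24 members (16.7%) stand beside 16.8% of its 2804 genes, so chromatin genes were called about as often as genes in general. Of the 24, 1 was called higher, beside 5.31% of the 2804 genes, and 3 lower, beside 11.5%. Other settings called few members too: 1 of 46 with a trend with gene length removed (0.536% of all genes), 2 with values left uncentred (2.08%) and 2 where runs of 400 neighbouring spots were centred (4.78%). With both the spot filter and removal of the length trend 4 of 24 passed, beside 9.93%.

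**Figure D1:**
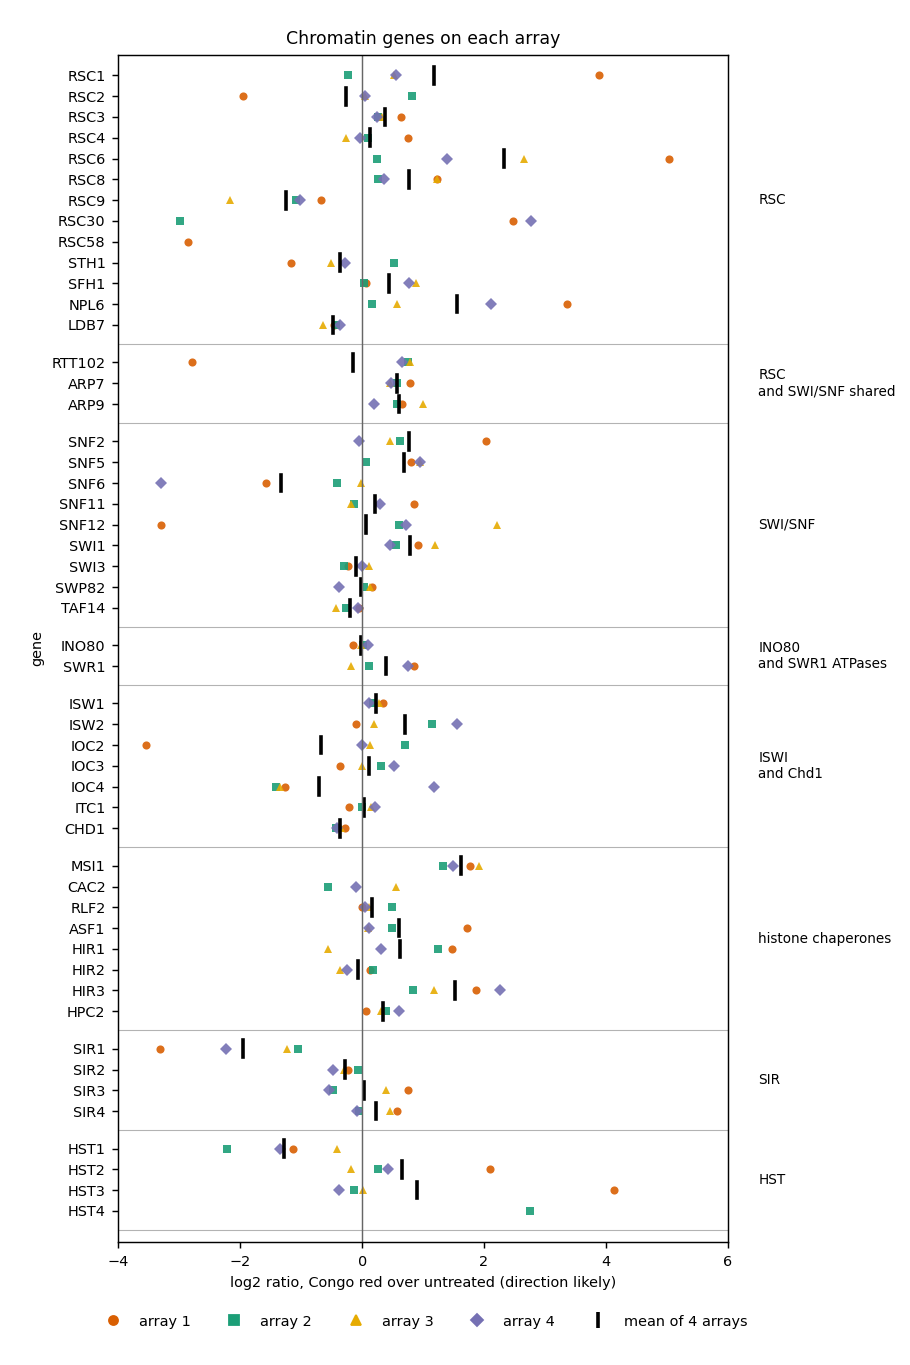
Log2 ratio of Congo red over untreated RNA (x axis) for the 50 chromatin genes with spots (y axis, by class), with a symbol for each array and a black bar at the mean where all 4 arrays gave a value. MSI1 and HIR3 lie right of 0 on every array and SIR1, RSC9 and HST1 left of 0, while array 1 alone sets RTT102 (-2.80), IOC2 (-3.55) and HST3 (4.14) apart.

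RSC genes took the widest range of any class. The ATPase gene STH1 stood at -0.36 ± 0.70 and its spots disagreed by up to 2.70. The other RSC genes split into 7 with means above 0 and 3 below. The median of the 11 RSC-only genes with 4 arrays was 0.37, above 0 on each array (0.64, 0.15, 0.33 and 0.24). With any 1 array left out the main median lay between 0.28 and 0.40. In the duplicate-spot analysis the 5 remaining genes kept their means and had a median of -0.26, the value of RSC2. The change came from the genes left out, so the class has no direction that holds in both sets of genes.

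RSC9, which encodes a DNA-binding subunit of RSC, gave -0.68, -1.09, -2.17 and -1.03 on arrays 1 to 4. All 8 spot values lay below 0. Its mean of -1.24 ± 0.64 (0.423-fold) had an adjusted p of 0.0826 (limma). In the duplicate-spot analysis it was 0.0167, and RSC9 fell. There it still passed without array 1 or array 2 and not without array 3 or array 4 (adjusted p = 0.0704 and 0.0780), settings in which none of the genes tested passed.

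LDB7, the gene of a small accessory subunit, showed a lesser but tighter fall. Its ratios were -0.46, -0.43, -0.63 and -0.36, again with 8 of 8 spot values below 0. The mean of -0.47 ± 0.12 (0.721-fold) had an adjusted p of 0.0990, which became 0.0376 with the spot filter. Its small SD depended on the centring. Without the spot filter LDB7 stood at -0.39 ± 0.43 uncentred (adjusted p = 0.679, limma). With runs of 400 neighbouring spots centred it stood at -0.40 ± 0.21 (adjusted p = 0.115, limma). LDB7 is short (543 bp), and on these arrays short genes had lower ratios. With a trend with gene length removed the duplicate-spot mean was -0.30 and no longer passed (adjusted p = 0.167). Nor did LDB7 pass in the duplicate-spot analysis when any array was left out (adjusted p from 0.0812 to 0.161). Without array 3 or array 4 none of the genes tested did.

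RSC6, RSC8, NPL6 and RSC3 lay above 0 on all 4 arrays without passing. RSC6, a core subunit, gave 5.03, 0.24, 2.65 and 1.38, and array 1 rested on a single spot. Its mean was 2.33 ± 2.05 (unadjusted p = 0.0355, adjusted p = 0.157), and 1.43 without array 1. RSC8, the gene of the scaffold subunit, gave 1.23, 0.26, 1.22 and 0.36, with a mean of 0.77 ± 0.53 (adjusted p = 0.131). On arrays 1 and 2 it too rested on a single spot.

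NPL6, also called RSC7, gave 3.35, 0.15, 0.57 and 2.12 (mean 1.55 ± 1.47, adjusted p = 0.175). Its second spot read 5.11 on array 1 and 4.10 on array 4, where the first read 1.60 and 0.14, so the size is poorly fixed. RSC3, the gene of a zinc-cluster DNA-binding subunit, was steadier at 0.64, 0.26, 0.33 and 0.24 (mean 0.37 ± 0.19). It missed the threshold in the main analysis (adjusted p = 0.165) as well as with the spot filter (adjusted p = 0.0886).

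Of the remaining RSC genes, SFH1, a core subunit gene, stood at 0.44 ± 0.45 and RSC4, a bromodomain subunit gene, at 0.13 ± 0.44. The bromodomain paralogues RSC1 and RSC2 stood at 1.18 ± 1.84 and -0.26 ± 1.19. Both means turned on array 1, with RSC1 at 3.89 and RSC2 at -1.96. Without array 1 they were 0.28 and 0.30. RSC30, the paralogue of RSC3, was measured on 3 arrays at 2.48, -2.99 and 2.78, and RSC58 on array 1 only, at -2.85.

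The actin-related proteins Arp7 and Arp9 form a module that binds the ATPase of both RSC and SWI/SNF. ARP7 gave 0.78, 0.57, 0.45 and 0.47, with 8 of 8 spot values above 0. Its mean was 0.57 ± 0.15 (1.48-fold), with an adjusted p of 0.0826. Uncentred the mean was 0.65 (adjusted p = 0.445, limma), and with runs of 400 neighbouring spots centred 0.39 (adjusted p = 0.110, limma). With the spot filter the adjusted p was 0.0252, and ARP7 rose. It did not pass when any array was left out (adjusted p from 0.0659 to 0.0953), although the mean stayed between 0.50 and 0.61. Without array 3 or array 4 none of the genes tested passed.

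ARP9 gave 0.66, 0.57, 0.99 and 0.20, with a mean of 0.60 ± 0.32 (adjusted p = 0.115). Arp7 and Arp9 work as a pair, and their genes differed by -0.034 ± 0.35 (ARP7 minus ARP9), less than the spread between arrays. RTT102, whose product stabilises that pair, was close on arrays 2 to 4 (0.76, 0.79 and 0.65) and at -2.80 on array 1, from a single spot. Its mean over 4 arrays was -0.15 ± 1.77 (adjusted p = 0.902), and between -0.46 and -0.42 without array 2, 3 or 4. Without array 1 it was 0.73 ± 0.075 (n = 3), which did not pass in the main analysis (adjusted p = 0.114, limma) and passed with the spot filter (adjusted p = 0.0328, limma), as did 336 of 3542 genes (9.49%). All 3 shared genes lay above 0 on arrays 2, 3 and 4, but on array 1 only ARP7 and ARP9 did. Setting array 1 apart followed from its RTT102 value, so this is no test that the 3 genes moved together.

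SWI/SNF genes centred on 0. The median of the 9 SWI/SNF-only genes was 0.059, with 0.16, 0.022, 0.13 and -0.0063 on arrays 1 to 4. None of the 9 passed in the main analysis, and none of the 5 that met the spot filter passed in the duplicate-spot analysis. SWI1, SNF5, SNF6 and SNF12 did not meet the filter and were not tested there. SWI1, the gene of a large DNA-binding subunit, gave 0.91, 0.55, 1.20 and 0.45 (mean 0.78 ± 0.34, adjusted p = 0.0839), with 8 of 8 spot values above 0. SNF5, a core subunit gene, gave 0.80, 0.061, 0.95 and 0.94 (mean 0.69 ± 0.42, adjusted p = 0.120). It passed where runs of 400 neighbouring spots were centred (0.94 ± 0.11, adjusted p = 0.0412).

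The ATPase gene SNF2 stood at 0.76 ± 0.89, led by 2.04 on array 1. The others were SNF6 at -1.33 ± 1.48, SNF11 at 0.21 ± 0.48, SNF12 at 0.059 ± 2.36, SWI3 at -0.10 ± 0.19, SWP82 at -0.015 ± 0.25 and TAF14 at -0.20 ± 0.18. TAF14 encodes a histone-reading protein that several transcription complexes share. SNF6 rested on single spots on 3 of 4 arrays, and SNF12 ran from -3.30 on array 1, from a single spot, to 2.21 on array 3.

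**Figure D2:**
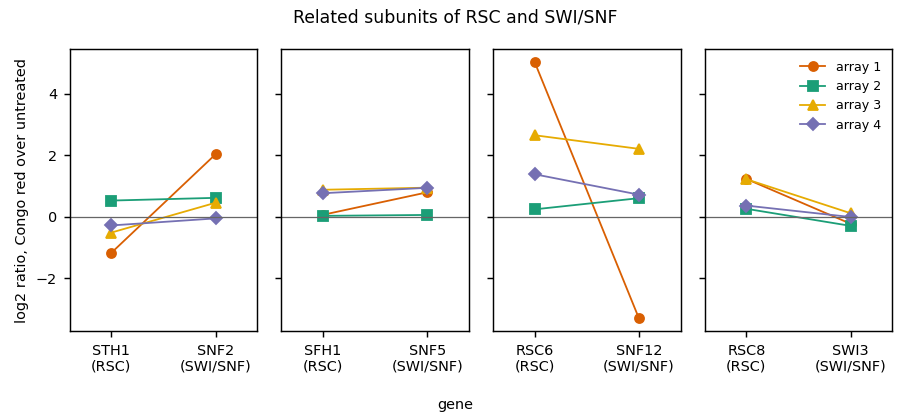
Log2 ratio of Congo red over untreated RNA (y axis) for 4 pairs of related subunits, RSC on the left and SWI/SNF on the right of each panel, with a line for each array. RSC8 lay above SWI3, and STH1 below SNF2, on all 4 arrays; RSC6 and SNF12 differed most on array 1.

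RSC and SWI/SNF are built from related parts, which allows a comparison subunit by subunit. The ATPase gene STH1 lay below SNF2 on 4 of 4 arrays, by -1.12 ± 1.44. SFH1 lay below SNF5 on 4 of 4 arrays, by -0.25 ± 0.33. RSC8 lay above SWI3 on 4 of 4 arrays, by 0.87 ± 0.50, and RSC6 above SNF12 on 3 of 4, by 2.27 ± 4.06. An exact two-sided sign-flip test over 4 arrays cannot go below 0.125, the value that STH1, SFH1 and RSC8 reached. With 10 pairs of members compared, none passed (adjusted p = 0.25 for these). The difference of RSC6 and SNF12 came mainly from array 1 (5.03 against -3.30), where each gene rested on a single spot. In their means the 4 differences did not run one way: SWI/SNF was higher in 2 pairs and RSC in 2.

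ISWI and Chd1 genes also centred on 0, with a median of 0.037 over 7 genes. CHD1, whose product spaces nucleosomes as a single protein, had the smallest SD of the 15 genes with an unadjusted p under 0.05. Its ratios were -0.28, -0.42, -0.35 and -0.42 (mean -0.37 ± 0.065, 0.775-fold), with 8 of 8 spot values below 0. The adjusted p was 0.133, and 0.0679 with the spot filter. CHD1 is long (4407 bp), so removal of the length trend lowered it, to -0.47 in the duplicate-spot analysis, where it passed (adjusted p = 0.0477). Its small SD depended on the centring. CHD1 stood at -0.28 ± 0.53 uncentred (adjusted p = 0.795, limma). With runs of 400 neighbouring spots centred it stood at -0.25 ± 0.30 (adjusted p = 0.308, limma).

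The ISWI ATPase genes ISW1 and ISW2 stood at 0.23 ± 0.10 and 0.70 ± 0.78. ISW1 was above 0 in 8 of 8 spot values, and the spots of ISW2 differed by up to 2.66. Their partner genes were ITC1, which joins Isw2, at 0.037 ± 0.19, and IOC3, IOC2 and IOC4, which join Isw1, at 0.12 ± 0.38, -0.68 ± 1.93 and -0.71 ± 1.26. IOC4 gave -1.27, -1.42 and -1.34 on arrays 1 to 3 and 1.17 on array 4, from single spots on arrays 2, 3 and 4. INO80 (-0.015 ± 0.10) lay between -0.15 and 0.094 on the 4 arrays, and SWR1 stood at 0.38 ± 0.50.

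Histone chaperone genes lay above 0 in 6 of 7 cases, with a median of 0.60. That median was 1.47 on array 1 and 0.49, 0.12 and 0.31 on arrays 2 to 4. Without array 1 the median was 0.28 over 8 genes, and over the 3 genes that met the spot filter 0.16. None passed in the main or the duplicate-spot analysis. Of the 7, 5 were above 0 on all 4 arrays, beside 20.4% of all genes, and none below 0 on all 4, beside 21.3%. The 5 include RLF2, which was at 0.0027 on array 1.

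MSI1 encodes the small subunit of CAF-1, and in multiple copies the gene was also known to dampen Ras signalling. It gave 1.76, 1.33, 1.91 and 1.49, the arrays lying close together and 8 of 8 spot values above 0. The mean was 1.62 ± 0.26 (3.08-fold). It had the smallest unadjusted p of the members (0.000137), just short of the threshold after adjustment (0.0522). It passed with the length trend removed (1.54, adjusted p = 0.0439), without centring (1.71, adjusted p = 0.0392) and where each run of 400 spots was centred (1.50, adjusted p = 0.0412). It did not pass with a channel order term (adjusted p = 0.0966) or with trend and robust options in limma (adjusted p = 0.144). Nor did it pass when any array was left out (adjusted p from 0.103 to 0.217), although the mean then lay between 1.53 and 1.72. None of the genes tested passed in any of these settings. On arrays 3 and 4 its spots lay more than 1 log2 unit apart, so it was not in the duplicate-spot analysis.

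The other CAF-1 genes did not share that value. RLF2, the gene of the large subunit, stood at 0.16 ± 0.22 (adjusted p = 0.482). MSI1 exceeded it on 4 of 4 arrays, by 1.46 ± 0.44 (exact sign-flip p = 0.125, the smallest possible). CAC2, the gene of the middle subunit, was measured on 3 arrays at -0.56, 0.56 and -0.10.

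HIR3 gave 1.86, 0.83, 1.18 and 2.25, with 8 of 8 spot values above 0. Its mean was 1.53 ± 0.65 (2.89-fold, adjusted p = 0.0669), and it passed with uncentred values (1.61, adjusted p = 0.0404). Its spots differed by up to 2.46. Other genes of the HIR complex, which deposits histones outside replication and represses histone genes, stood lower: HIR1 at 0.61 ± 0.93, HIR2 at -0.075 ± 0.27 and HPC2 at 0.34 ± 0.22. HPC2 was above 0 on all 4 arrays (adjusted p = 0.202). ASF1, which passes histones to both CAF-1 and HIR, stood at 0.60 ± 0.76, led by 1.72 on array 1 from a single spot.

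**Figure D3:**
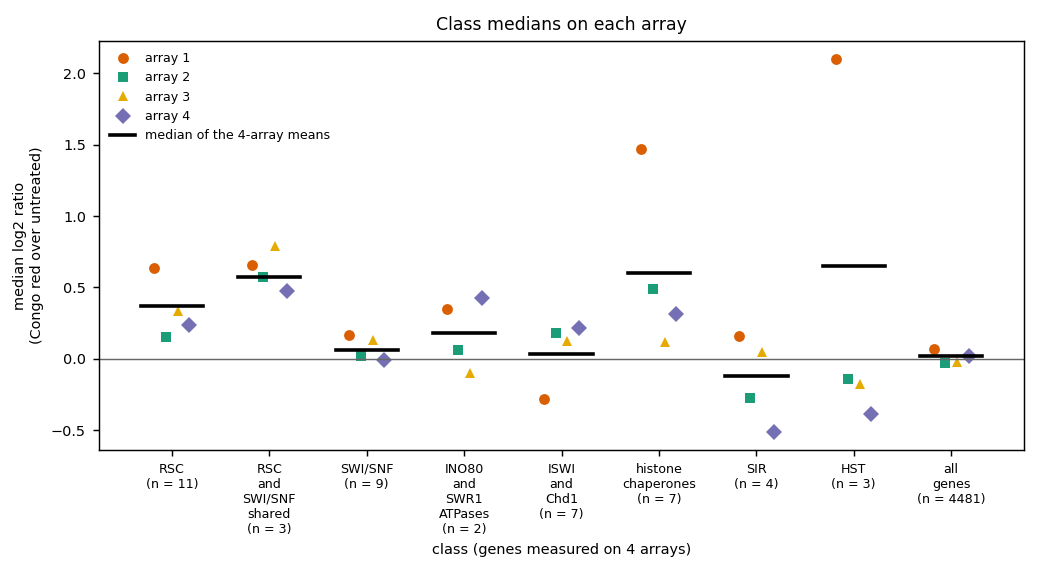
Median log2 ratio of Congo red over untreated RNA (y axis) in each class and over all genes (x axis), with a symbol for each array and a bar at the median of the 4-array means. The RSC-only genes, the shared subunits and the histone chaperones are above 0 on every array, SWI/SNF is near 0, and the HST bar at 0.65 is set by array 1.

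The 4 SIR genes did not move together. SIR1, whose product is recruited by the origin recognition complex to the silencers of the silent mating loci, gave -3.31, -1.06, -1.22 and -2.24. All 8 spot values lay below 0 and the spots of each array lay within 0.67 of each other. The mean was -1.96 ± 1.04 (0.257-fold), the lowest of all 46 members. Its adjusted p was 0.0809. With the spot filter the adjusted p was 0.0145, and SIR1 fell. There it passed without array 1 or array 2, and not without array 3 (adjusted p = 0.0704) or array 4 (adjusted p = 0.0853). Without array 3 or array 4 none of the genes tested passed. With both the filter and the length trend removed its mean was -2.06 (adjusted p = 0.0134).

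SIR2, the NAD-dependent deacetylase gene, gave -0.24, -0.072, -0.31 and -0.48 (mean -0.28 ± 0.17). It was below 0 on all 4 arrays and did not pass (adjusted p = 0.240, and 0.166 with the spot filter). SIR3 and SIR4 encode the proteins that spread along silent chromatin. SIR3 gave 0.76, -0.48, 0.40 and -0.54 (mean 0.034 ± 0.64). SIR4 gave 0.57, -0.050, 0.45 and -0.077 (mean 0.22 ± 0.33). In both genes arrays 1 and 3 were positive and arrays 2 and 4 negative, which is the split by channel order. The coefficient for channel order was 0.54 for SIR3 (unadjusted p = 0.0188) and 0.29 for SIR4 (unadjusted p = 0.0866), and over all genes 4.06% had an unadjusted p under 0.05 and 0.0% passed.

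HST1 encodes the deacetylase closest to Sir2, which represses sporulation genes together with Sum1. It gave -1.14, -2.22, -0.42 and -1.35 (mean -1.28 ± 0.74, 0.411-fold, adjusted p = 0.0937). It was below 0 on all 4 arrays, and lower than SIR2 on 4 of 4 by -1.01 ± 0.84 (exact sign-flip p = 0.125). Its spots on array 3 read 1.74 and -2.58, so that array's value is the mean of opposed readings.

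HST2, the gene of a mostly cytoplasmic deacetylase, stood at 0.65 ± 1.00. HST3, which removes acetyl groups from new histone H3, stood at 0.91 ± 2.16, from 4.14 on array 1 and between -0.38 and 0.016 elsewhere. HST4, which acts with HST3, was measured on array 2 only, at 2.75 from a single spot. No HST gene met the spot filter.

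**Figure D4:**
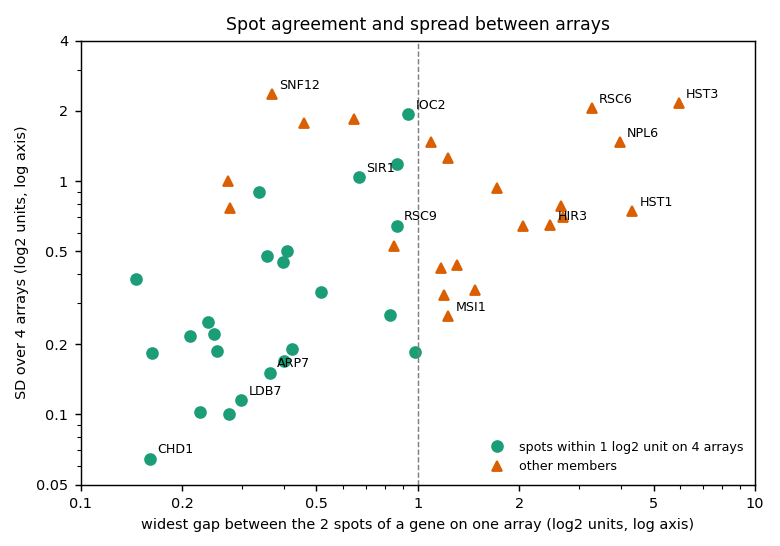
SD of the log2 ratio over 4 arrays (y axis, log scale) against the widest gap between the 2 spots of a gene on any array (x axis, log scale) for the 46 members with 4 arrays, with the 24 of the duplicate-spot analysis as circles. CHD1, LDB7 and ARP7 combine close spots with close arrays, whereas HST3, HST1, NPL6 and RSC6 have gaps above 3 log2 units.

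Array 1 was the noisiest for these genes. It held the largest absolute ratio of 24 of the 46 members, and 7 of the 8 ratios past 3 log2 units. The shares over all genes were not counted for either. Their median absolute ratio on arrays 1 to 4 was 0.82, 0.40, 0.41 and 0.42, beside 0.49, 0.37, 0.36 and 0.36 for all genes. Both spots lay within 1 log2 unit for 76.3%, 90.9%, 78.3% and 84.1% of members with 2 measured spots, beside 80.8%, 91.7%, 91.4% and 86.6% of all genes. The median SD over arrays was 0.49 for members and 0.38 for all genes. An SD above 1 was found in 11 members (23.9%), beside 14.8% of all genes. Across the 46 members, arrays 2, 3 and 4 correlated with each other at r from 0.51 to 0.53 and with array 1 at r from 0.17 to 0.42, as a description over genes that share arrays.

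Of 35 members with all 8 spot values, 12 had 1 sign throughout, beside 28.2% of such genes. In 8 of the 35 every value was above 0, beside 11.3% of such genes. These were RSC3, NPL6, ARP7, SWI1, ISW1, RLF2, MSI1 and HIR3. In 4 of the 35, RSC9, LDB7, CHD1 and SIR1, every spot value lay below 0, beside 16.9% of such genes. Members were longer than genes in general, with a median span of 1920 bp beside 1250 bp (R64 annotation). Over all genes the mean ratio rose with span (rank correlation 0.23), and over the 46 members it was 0.069. With the length trend removed the members' median was 0.059, beside -0.036 for all genes.

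Other chromatin genes were counted in 5 lists of textbook partners. Of 80 genes, 64 were measured on 4 arrays, and 11 of them (17.2%) had an unadjusted p under 0.05, beside 27.5% of all genes. Of these 4 were higher and 7 lower, and the median of the 64 was 0.10. None passed in the main analysis. In the duplicate-spot analysis 3 of 35 passed (8.57%), beside 16.8% of all its genes. Of the other subunits of INO80 and SWR1, SWC7, a SWR1 subunit gene, rose (0.62 ± 0.36, adjusted p = 0.0391) and ARP5, an INO80 subunit gene, fell (-0.43 ± 0.093, adjusted p = 0.0465), 2 of 10 genes. Of other chaperones and elongation factors NHP6B, the gene of a small DNA-bending protein, fell (-0.85 ± 0.33, adjusted p = 0.0158), 1 of 7, and with the length trend removed it did not pass (-0.52, adjusted p = 0.0626). None passed among 8 silencing partners, 5 genes of histone deacetylase complexes and 5 of the acetyltransferases NuA4 and NuA3.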

How the data were processed

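The deposited table holds a log2 ratio of both channels for each spot. The sources used here do not state the scanner, filters or normalization. A top value of 16.61, the log2 of 100000, was taken as a placeholder and set to missing. Each array was centred on its median (0.43, -0.25, 0.30 and 0.64 as deposited). Arrays 2 and 4, whose labels place the treated RNA in channel 1, were multiplied by -1. As deposited, arrays of opposite channel order correlated at r from -0.38 to -0.19 and of the same order at 0.27 and 0.31. Spots were named by the platform annotation (11138 of 12800), symbols were updated through the R64 gene table, and spots of a gene were averaged. Genes with 4 values were tested for a mean other than 0 (limma 3.58.1, lmFit and eBayes, R 4.3.3) and adjusted by Benjamini-Hochberg over all genes. The fit was run on simulated data for the genes of the duplicate-spot analysis only, with independent normal noise. That run does not check the main analysis or errors that genes share on an array. The members and lists were chosen with earlier results of these data known. Values on each array are given for members with an unadjusted p under 0.05, members passing in the duplicate-spot analysis and all SIR genes, and every other member by its mean or range. Alternatives were the duplicate-spot filter, other centring, 3 arrays as the minimum, spot medians, removal of a loess trend with gene length, a term for channel order, unturned values, other variance priors and leaving out each array.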

Additional observations from a re-analysis of the deposited data

Results flagged for a closer look

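In 5 of the 46 members measured on 4 arrays, a single array stood far from the other three by Dixon's test, where chance flags about 1 in 20. For 3 of the 5 that was array 1. The share flagged over all genes was not counted, so such outliers cannot be called particular to the members. HST3 was at 4.14 on array 1 and at -0.17 ± 0.20 on the others, with spots 5.93 log2 units apart there. IOC2 was at -3.55 on array 1, where its spots lay within 0.62 of each other, and at 0.27 ± 0.37 elsewhere. RTT102 was at -2.80 on array 1, from a single spot, and at 0.73 ± 0.075 elsewhere. IOC4 was at 1.17 on array 4, from a single spot, and at -1.34 ± 0.074 on the other arrays. SNF5 was at 0.061 on array 2, where its spots lay 0.96 apart, and at 0.90 ± 0.086 elsewhere.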

How the results depend on the processing

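Genes passing over all genes numbered 0 of 4481 in the main analysis (1234 at an unadjusted p under 0.05), 472 in the duplicate-spot analysis, 93 uncentred, 214 with runs of 400 spots centred, 24 with the length trend removed, 278 with that and the spot filter, and 546 with the spot filter and a channel order term (added after the data were seen). Members passing numbered 0, 4, 2, 2, 1, 4 and 4 in that order. Leaving out an array left from 0 to 336 genes and from 0 to 3 members in the duplicate-spot analysis. Members with an unadjusted p under 0.05 (limma) numbered 15 of 46, beside 27.5% of all genes. In the duplicate-spot analysis they numbered 9 of 24, and there 7 of 24 with the length trend removed and 9 of 24 with the channel order term. With unturned values they numbered 1 of 46, and without an array from 8 of 47 to 15 of 47. The share of all genes was not counted in those other settings. The RSC median of 0.37 over 11 genes became -0.26 over the 5 genes of the duplicate-spot analysis (also with the channel order term). It was -0.30 there with the length trend removed, and 0.11 over the 11 genes unturned. That of the shared subunits became 0.38 with runs centred and 0.047 unturned. That of SWI/SNF (0.059) became 0.14 uncentred, -0.053 with the length trend removed, -0.11 with that and the spot filter and 0.16 unturned, and ran from -0.064 to 0.11 without an array. Unturned, ISWI and Chd1 stood at -0.29 and the chaperones at -0.038, and CHD1 (0.051), HIR3 (-0.012) and HST1 (0.50) reversed. Of other results, 8 of 46 members changed sign without array 1, 5 with the length trend removed and 3 uncentred, none of them among the 15. The causes were not tested. No paired analysis was possible because all arrays form 1 group and each array is its own pair.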
